A study of Mus musculus with 4 samples.

Results

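Innate lymphoid cells are lymphocytes without antigen receptors that fall into helper groups much like those of CD4+ T cells. ILC1s depend on T-bet, the factor encoded by Tbx21, respond to IL-12 and release IFN-γ, and the related NK cells also use Eomes. ILC3s respond to IL-23 and release IL-17A, IL-17F and IL-22, with the aryl hydrocarbon receptor (encoded by Ahr) supporting their upkeep. ILC2s, the cells sorted here, depend on GATA3 and release IL-5 and IL-13, and under IL-12 or IL-23 type conditions lung ILC2s are known to gain features of the other groups.

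The genes described are 9 factors, cytokines and receptors of ILC1s and ILC3s, taken by exact gene symbol from the 22558 genes of the count table. They are Tbx21, Eomes, Ifng and Il12rb2 for ILC1s, and Ahr, Il17a, Il17f, Il22 and Il23r for ILC3s, and all 9 were found in both deposited tables. They were measured by RNA sequencing in 2 libraries from WT mice (C57BL/6, wildtype) and 2 libraries from mice labelled ICAM-1 KO on the C57BL/6 background, all 6 weeks old. Every group had received 3 intranasal doses of 0.5 µg rmIL-33, so no unchallenged cells serve as a reference, and each library is a pool of lung ILC2s from 4 mice taken on day 4. The ICAM-1 KO is present in all cells of the animal, and not in ILC2s alone. ILC2s had been sorted as CD45+, lineage-negative, ST2+ and CD127+ cells, a gate that removes T cells (CD3ε, CD4, CD5, TCRβ, TCRγδ), B cells (CD45R), myeloid cells (CD11b, CD11c, Gr-1) and cells carrying Ter119 or FcεRIα, but holds no antibody to NK cell receptors.

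The libraries held between 24796148 and 28782471 estimated counts. Icam1 RNA was not lower in the ICAM-1 KO-labelled libraries (2812 and 3453 counts) than in WT (2579 and 2630 counts). The deposited count is a sum over the whole gene and does not show whether the altered part of the gene is transcribed, so it does not check the label, and the libraries are named by it throughout. All 17 listed ILC2 genes passed the low-count filter in these libraries. Their summed normalized count lay between 7103 and 9157, against 300.2 to 422 for 11 NK cell genes. For 11 T cell genes it was 702 to 1276, and further lists are given below. A normalized count here is the authors' value, the estimated count plus 1 multiplied by 1 upper quartile factor per library.

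The sequences before the starts of 3 genes are shown, those of the receptors for IL-12 and IL-23 and that of Il17a, the highest of the 4 cytokines. Each of these windows held a motif searched for, as did those of Il17f, Il22 and Ifng, which are not shown. RefSeq gives such windows for 8 of the 9 genes, each 250 bases before to 50 bases after the start on GRCm38.p6 (mm10). The 250 bases before the start are printed 5′ to 3′ on the strand of the gene. Capitals mark GCGTG, the core bound by the aryl hydrocarbon receptor, or AGGTCA, an element bound by nuclear receptors, each searched on both strands. The windows are chr6:67376189-67376438 (minus strand) for Il12rb2, chr1:20730655-20730904 (plus strand) for Il17a and chr6:67491856-67492105 (minus strand) for Il23r.
Il12rb2: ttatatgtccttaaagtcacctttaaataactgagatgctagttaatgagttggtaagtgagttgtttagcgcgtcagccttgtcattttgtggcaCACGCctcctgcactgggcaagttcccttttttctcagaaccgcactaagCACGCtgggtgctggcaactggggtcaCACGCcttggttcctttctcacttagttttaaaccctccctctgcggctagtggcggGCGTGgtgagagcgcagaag
Il17a: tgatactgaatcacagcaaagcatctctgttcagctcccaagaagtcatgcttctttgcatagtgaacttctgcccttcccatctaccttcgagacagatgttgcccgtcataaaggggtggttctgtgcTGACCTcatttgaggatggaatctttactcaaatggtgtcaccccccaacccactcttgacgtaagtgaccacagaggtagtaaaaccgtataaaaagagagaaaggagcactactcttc
Il23r: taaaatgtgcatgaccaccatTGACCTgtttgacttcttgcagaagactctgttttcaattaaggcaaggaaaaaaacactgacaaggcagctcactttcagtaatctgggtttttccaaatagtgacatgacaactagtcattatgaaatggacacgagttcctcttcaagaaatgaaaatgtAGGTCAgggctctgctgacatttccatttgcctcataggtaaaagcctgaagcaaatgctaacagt

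The Il12rb2 window held GCGTG 4 times, at 154, 104, 77 and 20 bases before the start, and none of the other 7 windows held it. GCGTG was present in 32.4% of the 32851 RefSeq windows. AGGTCA was present in 16.3% of all windows and in those of Il17a, Il17f, Il23r and Ifng. It stood 120 bases before the start of Il17a, and 229 and 66 bases before that of Il23r. The T-box element AGGTGTGA was in none of the 8 windows and in 1.28% of all windows. AGATAA, a site bound by GATA factors, was in the Il22 window alone among the 8 and in 11.2% of all. No window held more than 1 of the 4 motifs, so none overlapped another. Before the RefSeq starts of Il17f and Il22, the window overlaps the GENCODE gene of the same name and touches an annotated exon. The matches describe letters and not bound sites.

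All 9 genes were far below Gata3 and Il5, genes that define ILC2s. In these bulk libraries fewer cells of a type and less RNA per cell cannot be told apart. To compare levels between genes, estimated counts were expressed per kilobase of annotated exons and relative to the library's total count, on the CPM scale (CPM per kilobase). Gata3, the defining factor of ILC2s, had a level per length of 138 ± 10.7 (SD, n = 4 libraries). Tbx21 had a level of 1.51 ± 0.483, and Gata3 exceeded it between 57.6-fold and 132-fold within a single library. Eomes was lower still at 0.480 ± 0.234, with Gata3 between 203-fold and 1031-fold above it. Ahr was the nearest of them to Gata3, which was 11.6-fold to 21.5-fold above it. The order of the factors was the same in each of the 4 libraries, with Gata3 first, then Ahr, Tbx21 and Eomes.

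The cytokines showed a gap of the same kind. Il5, the eosinophil growth factor made by ILC2s, had a level per length of 751 and 894 in WT and 505 and 488 in the ICAM-1 KO-labelled libraries. Il17a, at 5.17 and 7.48 in WT and 9.33 and 9.58 in the ICAM-1 KO-labelled libraries, was the highest of the 4 ILC1 and ILC3 cytokines, and Il5 was 50.9-fold to 145-fold above it. Il5 exceeded Ifng by 170.4-fold to 375-fold. Il13, which was much rarer than Il5, was 4.28-fold and 7.60-fold above Ifng in the ICAM-1 KO-labelled libraries and 13.4-fold and 13.9-fold in WT. Against Il17a, Il13 stood at 5.62-fold and 4.28-fold in WT and at 1.14-fold and 1.28-fold in the ICAM-1 KO-labelled libraries. Il13 itself fell (log2 fold change -1.45, adjusted p = 0.00247).

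**Figure D1:**
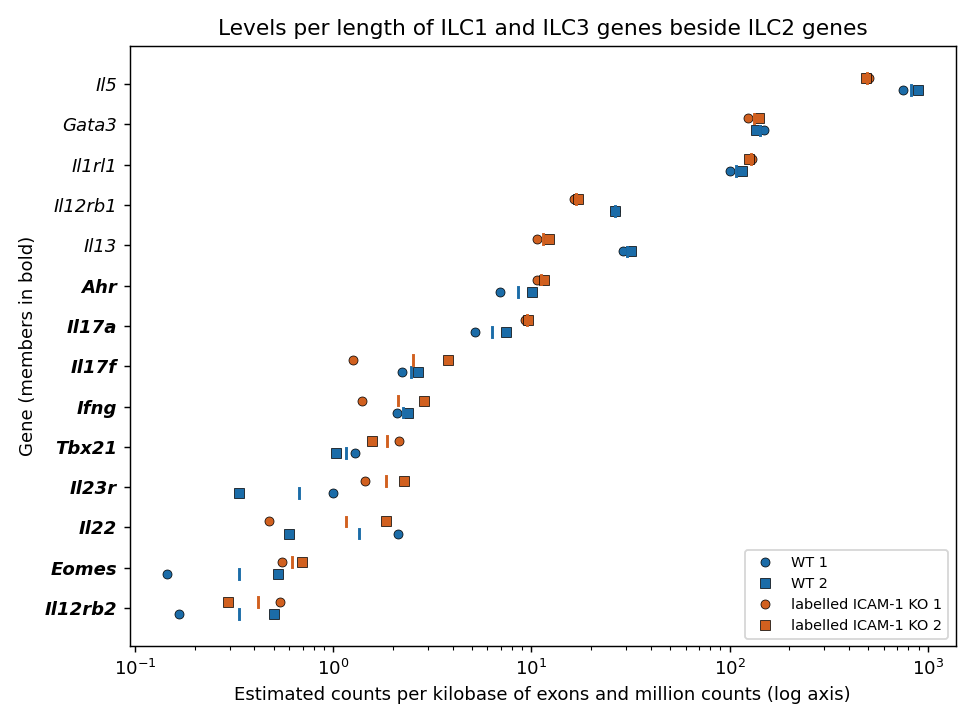
Level per length, as CPM per kilobase of exons (log axis), in each of the 4 libraries, for the 9 ILC1 and ILC3 genes (bold) and 5 reference genes, with short bars at the mean of the 2 libraries of each group. The 9 genes lie at or below a mean of 9.85 (Ahr), whereas Gata3 has a mean of 138 and Il5 one of 659.

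Among the 9 genes, Ahr had the highest level per length at 9.85 ± 2.03 (SD, n = 4 libraries), followed by Il17a at 7.89 ± 2.04. The ranges of Ahr and Il17a over the libraries overlapped, although Ahr lay above Il17a within each library. Ahr stood at 6.97 and 10.1 in WT and at 10.7 and 11.6 in the ICAM-1 KO-labelled libraries. Il17a stood at 5.17 and 7.48, and at 9.33 and 9.58, in the same order. Il17a lay above Il17f, at 2.49 ± 1.05, in all 4 libraries without overlap of the ranges on the length of all exons. They were the only neighbours in the order whose ranges were apart. Il17f was followed by Ifng (2.19 ± 0.612), Tbx21 (1.51 ± 0.483), Il23r (1.26 ± 0.811), Il22 (1.26 ± 0.842), Eomes (0.480 ± 0.234) and Il12rb2 (0.376 ± 0.176), each overlapping the next. Among 14906 protein-coding genes, 70.5% had a lower mean level than Ahr, 66.1% a lower one than Il17a and 24.3% a lower one than Il12rb2. Il17f has 4 annotated transcripts, and on the length of its longest transcript its mean level was 4.27 in place of 2.49. Its highest library then stood at 6.49, above the lowest of Il17a at 5.17, so whether the 2 ranges are apart depends on the length used. Within that highest library, ICAM-1 KO library 2, Il17a stood at 9.58.

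T-bet and eomesodermin are T-box factors that direct IFN-γ and cytotoxic programs. Tbx21, on chromosome 11 of mm10 from 97098071 to 97115331, was counted 87 and 74 times in WT, against 133 and 107 times in the ICAM-1 KO-labelled pools. This gave a normalized count of 2.91 and 2.37 (WT) compared with 4.65 and 3.44 (ICAM-1 KO-labelled). Both ICAM-1 KO-labelled libraries were therefore above both WT libraries. The log2 fold change of 0.64 (standard error 0.399, 95% interval -0.26 to 1.55) did not pass the test (adjusted p = 0.316 from the quasi-likelihood test of edgeR, adjusted by Benjamini-Hochberg over all 11711 genes tested). Eomes, on chromosome 9 from 118478212 to 118486132, was counted 16.5 and 63 times in WT, against 57 and 79 times in the ICAM-1 KO-labelled pools. The WT libraries differed by 3.73-fold in CPM, with an exact 95% interval of 2.13 to 6.91 that covers counting error alone. By normalized count, WT library 2 (2.03) lay within the range of the ICAM-1 KO-labelled libraries (2.01 and 2.55). In CPM per kilobase it lay just below both (0.527 against 0.553 and 0.692), so the overlap depends on the scale. Eomes had a summed normalized count of 7.17, below the limit of 10, and was not tested.

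IFN-γ is the signature cytokine of ILC1s, and IL-12Rβ2 is the subunit that makes the IL-12 receptor able to signal through STAT4. Ifng, on chromosome 10 from 118441046 to 118445892, was counted 74 and 88.8 times in WT, against 44.9 and 102 times in the ICAM-1 KO-labelled pools. The ICAM-1 KO-labelled libraries lay on either side of both WT libraries, and differed from each other by 2.05-fold in CPM (exact 95% interval 1.43 to 2.98, counting error alone). Its log2 fold change was -0.08 (standard error 0.483, 95% interval -1.18 to 1.01, adjusted p = 0.930 from the same test). The direction turned when 1 library was left out, to 0.34 without ICAM-1 KO replicate 1 and to 0.02 without WT replicate 2.

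Il12rb2, on chromosome 6 from 67291318 to 67376188, was the lowest of the 9 genes, with 17.3 and 55 counts (WT) and 50.7 and 30.6 in the ICAM-1 KO-labelled libraries. The groups overlapped. Its summed normalized count of 5.18 kept it from the test, and fitted without a low-count filter its log2 fold change was 0.21 (95% interval -1.44 to 1.86, adjusted p = 0.894). Serbp1, a gene on the other strand with 9846 to 15603 counts per library, overlaps Il12rb2, and whether counting used strand is not stated, so even these few counts are uncertain. The partner subunit Il12rb1 was 30.4-fold to 158-fold above Il12rb2 per length within a library. Il1rl1, the IL-33 receptor by which ILC2s were sorted, was 229.9-fold to 604-fold above Il12rb2.

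The aryl hydrocarbon receptor is a ligand-activated factor that senses dietary, microbial and tryptophan-derived ligands. Ahr, on chromosome 12 from 35497974 to 35535038, was by far the most counted of the 9 genes, at 1170 and 1791 (WT) and 1636 and 1970 (ICAM-1 KO-labelled). This gave a normalized count of 38.6 and 56.7 (WT) compared with 56.8 and 62.8 (ICAM-1 KO-labelled). WT library 2 and ICAM-1 KO library 1 were thus nearly equal, while WT library 1 stood below the other 3. The log2 fold change was 0.35 (standard error 0.177, 95% interval -0.05 to 0.75, adjusted p = 0.217 in edgeR). It was 0.10 without WT replicate 1 (adjusted p = 0.695) and 0.66 without WT replicate 2 (adjusted p = 0.0546). A lincRNA gene on the other strand overlaps Ahr, with at most 51 counts in a library.

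IL-17A and IL-17F are related cytokines that form dimers and recruit neutrophils, and their genes lie 42.6 kb apart on chromosome 1. Il17a, from 20730905 to 20734496, was counted 165 and 252 times in WT, against 271 and 308 times in the ICAM-1 KO-labelled pools. This gave a normalized count of 5.48 and 8.01 (WT) compared with 9.44 and 9.84 (ICAM-1 KO-labelled), so the groups did not overlap. The log2 fold change of 0.54 (standard error 0.291, 95% interval -0.12 to 1.20) did not pass the test (adjusted p = 0.249). Il17f, from 20777146 to 20790617, was counted 123 and 156 times in WT, against 63 and 210 times in the ICAM-1 KO-labelled pools. It did not follow Il17a in these last libraries, where Il17a differed by 1.03-fold in CPM (exact 95% interval 0.869 to 1.21) and Il17f by 3.01-fold (2.26 to 4.06). The ratio of Il17a to Il17f per length was 2.32, 2.79 and 2.53 in the WT libraries and ICAM-1 KO library 2, and 7.43 in ICAM-1 KO library 1. The log2 fold change of Il17f was 0.03 (95% interval -1.08 to 1.14, adjusted p = 0.976), and lay between -1.03 and 0.61 when single libraries were omitted. Their longest coding transcripts shared 63.4% of 1051 aligned bases.

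IL-22 acts on epithelium rather than on leukocytes, and its gene lies 231 kb from Ifng on chromosome 10, from 118204942 to 118210047. Il22 was counted 64 and 19 times in WT, against 13 and 56 times in the ICAM-1 KO-labelled pools. Each group held 1 library with many and 1 with few counts, a 3.56-fold difference in CPM in WT (exact 95% interval 2.10 to 6.29) and a 3.89-fold one in the ICAM-1 KO-labelled libraries (2.10 to 7.75). The groups overlapped. These intervals cover counting error only, and not the variation between pools of mice. Il22 was not tested, with a summed normalized count of 5.08, and without a filter its log2 fold change was -0.25 (95% interval -2.30 to 1.80, adjusted p = 0.899). Its transcript is 97.4% identical over 1110 bases to that of Iltifb, a near copy in the annotation. Iltifb had no match by symbol among the counted genes, and whether reads were placed on the wrong copy was not tested. Of the ICAM-1 KO-labelled libraries, library 2 had the higher normalized count for 7 of the 9 genes, and library 1 for Tbx21 and Il12rb2.

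IL-23R pairs with IL-12Rβ1 to form the IL-23 receptor. Il23r, on chromosome 6 from 67422932 to 67491855, lies 46.7 kb from Il12rb2 and was counted 68 and 24 times in WT, against 89 and 155 times in the ICAM-1 KO-labelled pools. This gave a normalized count of 2.28 and 0.792 (WT) compared with 3.12 and 4.97 (ICAM-1 KO-labelled), which lay above both WT libraries. This was the largest difference among the 6 genes tested, a log2 fold change of 1.47 (standard error 0.545, 95% interval 0.23 to 2.70). It had an unadjusted p of 0.0247 and did not pass after adjustment (adjusted p = 0.106 in edgeR). The value ranged from 0.87 without WT replicate 2 to 2.43 without WT replicate 1, with adjusted p of 0.370 and 0.0833.

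**Figure D2:**
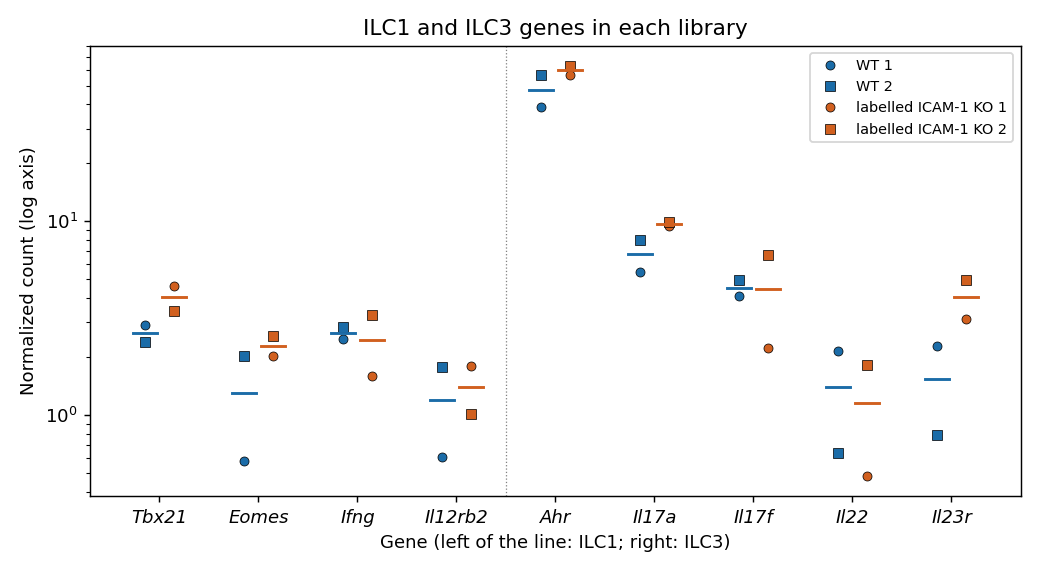
Normalized counts (log axis) of the 9 genes in each WT library (blue) and each library labelled ICAM-1 KO (orange), with bars at the group means of 2 libraries. Circles are replicate 1 and squares replicate 2. Tbx21, Ahr, Il17a and Il23r have both orange points above both blue ones, and the other 5 genes overlap.

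Of the 9 genes, 6 passed the low-count filter, and none of these 6 differed between the labels at an adjusted p under 0.05 in edgeR, against 8.80% of all genes tested that were higher and 4.97% that were lower in the ICAM-1 KO-labelled libraries. With a change of at least 2-fold asked for as well, these shares were 4.94% and 0.538%, and again none of the 6 was among them. At an unadjusted p under 0.05 1 gene, Il23r, was higher and 0 were lower, beside 17.1% and 13.1% of all genes tested in edgeR. DESeq2 and limma likewise gave Il23r alone at an unadjusted p under 0.05 and no gene of the 6 after adjustment. At an unadjusted p under 0.05, Ahr and Il23r were higher with a replicate block and without ICAM-1 KO replicate 1, Ahr and Il17a without WT replicate 2, and 0 genes without ICAM-1 KO replicate 2. In 4 of the 6 genes both ICAM-1 KO-labelled libraries lay above both WT libraries, a position that 28.3% of all genes tested shared, and none lay below, as 31.3% did. The median log2 fold change of the 6 genes was 0.45, beside 0.01 for all genes tested. A test that did not pass does not show that levels were equal, and the intervals for Ifng and Il17f held changes of more than 2-fold in either direction.

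**Figure D3:**
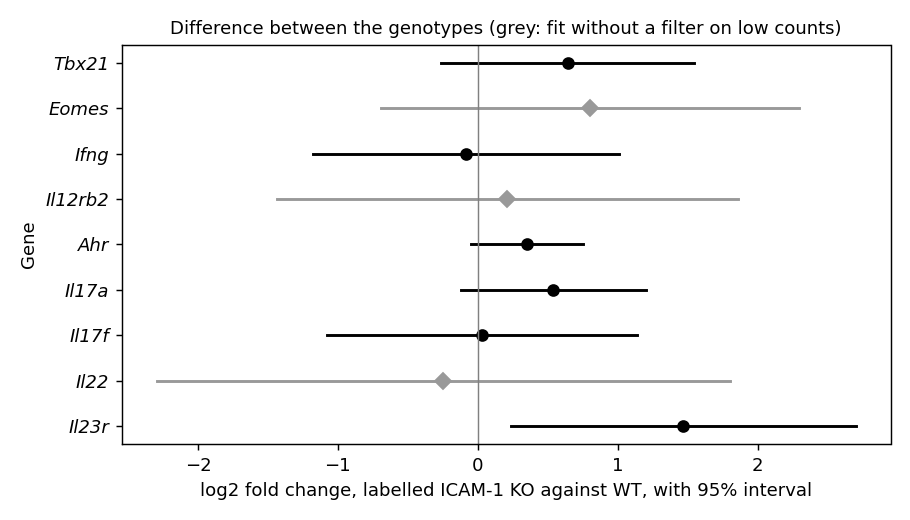
Log2 fold change (points) of each of the 9 genes in the ICAM-1 KO-labelled libraries against WT, with 95% intervals (lines). Black marks the 6 genes tested and grey the 3 genes (Eomes, Il12rb2, Il22) fitted without a low-count filter. The interval of Il23r, 0.23 to 2.70, lies above 0 before adjustment, and the other 8 intervals include 0.

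Around these genes, 27 other genes of the IL-12, IL-18 and interferon axis were examined, of which 24 were tested. At an adjusted p under 0.05 from edgeR, 4 were higher and 2 were lower in the ICAM-1 KO-labelled libraries, beside 8.80% and 4.97% of all genes tested, and their median log2 fold change was 0.12 beside 0.01 for all genes. Il12rb1, the subunit shared by the IL-12 and IL-23 receptors, fell from 97.9 ± 0.678 to 60.0 ± 2.90 normalized counts (SD, n = 2), with a log2 fold change of -0.68 (adjusted p = 0.00549). Cxcr6, a chemokine receptor of tissue lymphocytes and the most abundant gene of the list, stood at 648 ± 0.906 in WT and fell to 445 ± 9.49 (log2 fold change -0.52, adjusted p = 0.00470). Fasl, a death ligand of cytotoxic lymphocytes, rose from 2.64 and 2.53 normalized counts in WT to 7.88 and 8.06 (1.66 on the log2 scale, adjusted p = 0.0147). The repressor Prdm1 (0.83), the kinase Jak2 (0.32) and the IL-27 receptor Il27ra (0.34) also rose on the log2 scale. The call of Jak2 was lost without any 1 library (adjusted p = 0.0757 to 0.160) and with edgeR's own filter or none. That of Il27ra was lost with edgeR's older test (0.0602), limma (0.0538), edgeR's own filter, no filter and without ICAM-1 KO replicate 2, WT replicate 1 or WT replicate 2. Fasl did not pass without either WT replicate, nor Prdm1 without WT replicate 1 or without a filter.

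Stat4, the factor activated by IL-12, was abundant at a normalized count of 125 ± 13.7 in WT and 147 ± 3.30 in the ICAM-1 KO-labelled libraries but did not pass the test (log2 fold change 0.26, adjusted p = 0.130). Among the abundant receptors of the list, neither Il2rb (-0.09, adjusted p = 0.544) nor Ifngr1 (0.41, adjusted p = 0.0704) passed, although Ifngr1 passed in DESeq2, with a replicate block and without ICAM-1 KO replicate 1 or WT replicate 2. The number of higher genes was 6 with DESeq2, 5 with a replicate block and 3 with edgeR's older test or limma. It was 2 with edgeR's filterByExpr rule and 1 without a low-count filter, and it fell when either WT library was left out.

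The second list held genes of the IL-23, IL-1 and IL-6 axis and other factors and products of ILC3s, 24 of 26 with a match by symbol and 23 tested. Of these, 7 were higher and 3 were lower in the ICAM-1 KO-labelled libraries at an adjusted p under 0.05 from edgeR, beside the same 8.80% and 4.97% of all genes, with a median log2 fold change of 0.08. The most abundant members, Rora, Stat3 and Nfkbiz, had log2 fold changes of 0.08, -0.03 and 0.16 and did not pass. The 7 higher genes were receptors and a factor. Il6ra, the IL-6 receptor, rose from 2.64 and 2.94 normalized counts in WT to 9.87 and 11.8 (1.99 on the log2 scale, adjusted p = 0.00649), and its signalling partner Il6st rose by 1.32 on the log2 scale. Il21r, the IL-21 receptor, rose from 19.2 and 25.9 in WT to 68.7 and 81.4 (1.76, adjusted p = 0.000674). Ccr6, a receptor of lymphocytes at mucosal sites, was counted 185 and 449 times in WT, against 923 and 1191 times in the ICAM-1 KO-labelled pools (1.80, adjusted p = 0.00782).

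The lymphocyte factor Tcf7 (1.13), the gut-homing receptor Ccr9 (1.29) and the TGF-β receptor Tgfbr1 (0.81) also rose. The 3 lower genes were Il12rb1, the AP-1 factor Batf, from 148 ± 1.82 to 105 ± 0.288 normalized counts (-0.46, adjusted p = 0.0142), and the cytokine gene Csf2 (-0.57, adjusted p = 0.0352). Without a low-count filter 4 were higher, and leaving out each library in turn gave between 5 and 7.

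**Figure D4:**
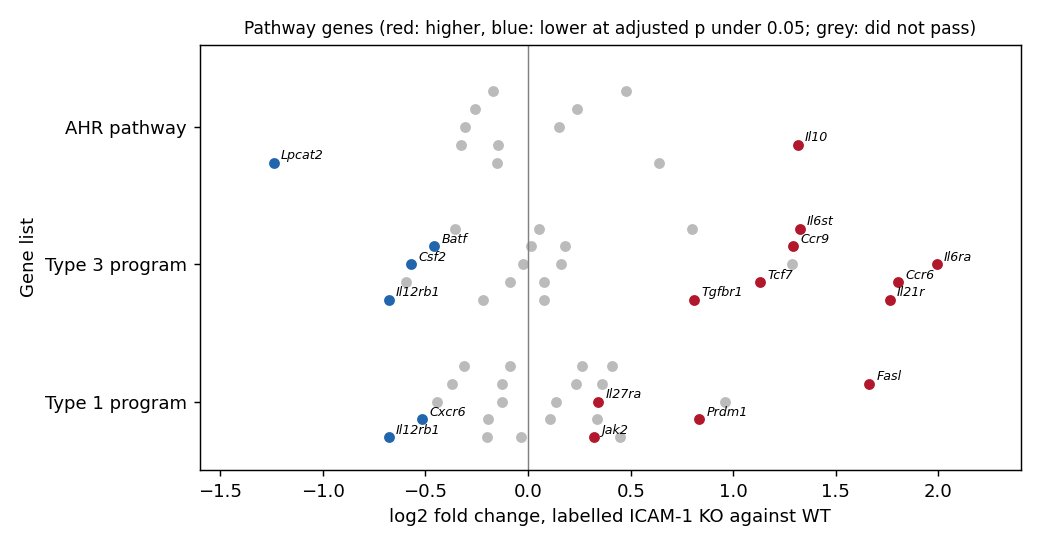
Log2 fold change in the ICAM-1 KO-labelled libraries against WT for the tested genes of the IL-12 and interferon list (Type 1 program), the IL-23, IL-1 and IL-6 list (Type 3 program) and the aryl hydrocarbon receptor list (AHR pathway), 1 point a gene, spread vertically for legibility. Red genes were higher and blue genes lower at an adjusted p under 0.05, and grey genes did not pass. The largest increase shown is that of Il6ra at 1.99, and the largest decrease that of Lpcat2 at -1.24.

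For the aryl hydrocarbon receptor, 19 partners and targets were listed, of which 12 were tested. The chaperones that hold the receptor in the cytoplasm were abundant and did not pass. Normalized counts in WT were 1889 ± 6.39 for Hsp90ab1, 923 ± 14.3 for Hsp90aa1 and 258 ± 33.3 for Ptges3. Their log2 fold changes were -0.15, -0.14 and -0.17. Of the receptor's targets, Cyp1a1 and Cyp1b1 were scarcely counted, as was the repressor Ahrr. Cyp1a1, a xenobiotic-metabolizing enzyme and the best known target, was counted 20 and 8 times in WT, against 9 and 24 times in the ICAM-1 KO-labelled pools. Cyp1b1 had 0 counts in 3 libraries and 14 in ICAM-1 KO library 2, and the repressor Ahrr had 13 counts in WT library 1 and 0 in the other 3. A count of 0 is given here as at or below a floor of 3 counts, which covers counting error alone. Aldh3a1, an aldehyde dehydrogenase, was counted 104 and 63 times in WT, against 18 and 11 times, and did not enter the test. Tiparp, another target, was well counted and did not pass (0.48, adjusted p = 0.123). At an adjusted p under 0.05 from edgeR, 1 gene was higher (Il10, a log2 fold change of 1.31 at 76 to 188 counts per library) and 1 was lower (Lpcat2, an enzyme of membrane lipids, -1.24). With 12 genes tested, 1 in each direction is near the 8.80% and 4.97% of all genes. The median of the 12 was -0.15. The call of Il10 was lost with edgeR's older test, edgeR's own filter, no filter or a replicate block (adjusted p = 0.0544 to 0.0957) and without any 1 library (0.0795 to 0.136). Without WT replicate 1 no gene was lower.

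Genes of other cells moved with the labels in the same libraries, to be read beside the 8.80% of all genes tested that were higher and the 4.97% that were lower. Of 11 T cell genes, all tested, 6 were higher in the ICAM-1 KO-labelled libraries, with a summed normalized count of 702 and 784 (WT) against 1077 and 1276 (ICAM-1 KO-labelled). The most abundant were the receptor constant genes Trbc2 and Trbc1, of which Trbc1 passed. Of the CD3 chains Cd3d was higher, Cd3e overlapped (log2 fold change 0.17) and Cd3g lay below WT in both ICAM-1 KO-labelled libraries (-0.33, adjusted p = 0.158). Of 6 regulatory T cell genes 4 were higher (summed 695 and 964 against 1115 and 1280), but the most abundant ones, Ctla4 (log2 fold change 0.33, adjusted p = 0.164) and Tnfrsf18 (0.05, adjusted p = 0.839), overlapped and did not pass. Foxp3, the defining factor, was higher, at 1282 and 1703 counts in WT against 4528 and 5673. Their part in the higher levels of Il6ra, Il6st, Il21r, Ccr6, Ccr9, Tcf7 and Il10 was not tested.

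Gamma delta T cells and NK cells are other sources of IL-17 and IFN-γ. Of 10 gamma delta T cell genes, 8 had a match and 7 were tested, and 2 of these, Trdc and Blk, were higher. Trdc, the δ chain constant gene, was counted 17 and 35 times in WT, against 118 and 148 times in the ICAM-1 KO-labelled pools (log2 fold change 2.42, adjusted p = 0.0166). The summed level of the list was 198 and 175 in WT and 234 and 221 in the ICAM-1 KO-labelled libraries, led by Tcrg-C4 and Tcrg-C1, neither of which passed. The part of gamma delta T cells in the levels of Il23r and Il17a was not tested. Of 11 NK cell genes 7 were tested and 3 were higher, Klrk1, Klrb1c and Nkg7 (summed 300.2 and 349 against 370 and 422), with Gzmb, which did not pass, and Nkg7 the most abundant. The defining receptor Ncr1 was counted 87 and 37 times in WT, against 57 and 40 times in the ICAM-1 KO-labelled pools, and Klra8 had 0 in WT library 2. Their part in Tbx21, Eomes and Ifng was not tested.

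Of the myeloid, endothelial and alveolar epithelial genes, 6 of 8, 6 of 6 and 4 of 5 were higher, and their part in the 9 genes was not tested. Their summed normalized counts were 256 to 261 in WT and 508 to 783 in the ICAM-1 KO-labelled libraries for the myeloid list, led by Lyz2 and Cd14. They were 91.0 to 99.9 and 223 to 231 for the endothelial list, led by Pecam1 and Cldn5. The alveolar list, led by Sftpc and Sftpa1, stood at 35.0 to 68.2 and 391 to 803, and its marker Sftpb had 0 counts in WT library 2. Of the 17 ILC2 genes, 2 (Klrg1 and Il9r) were higher and 5 (Il5, Il13, Il2ra, Arg1 and Id2) were lower, with a median log2 fold change of -0.06. The number higher is near the 8.80% of all genes tested, whereas the number lower is above the 4.97%. Gata3 was not shown to differ (log2 fold change -0.14, 95% interval -0.37 to 0.08, adjusted p = 0.363), nor was Il1rl1 (0.21, adjusted p = 0.173).

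**Figure D5:**
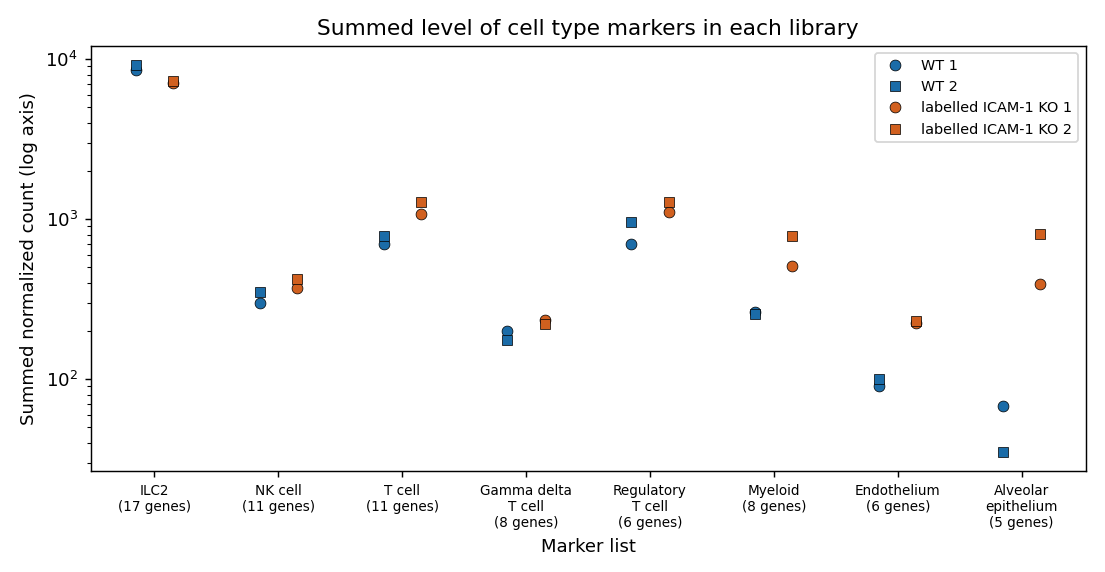
Summed normalized count (log axis) of 8 marker lists in each WT library (blue) and each library labelled ICAM-1 KO (orange). Circles are replicate 1 and squares replicate 2, and the number of genes with a match stands under each list. The ILC2 list is the highest in every library, at 7103 to 9157, and the alveolar list is the furthest apart between the labels.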

How the data were processed

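RNA of sorted lung ILC2s was measured in 2 WT libraries and 2 libraries labelled ICAM-1 KO, grouped by their titles. The authors deposited estimated counts per gene, made from SMARTer cDNA by STAR alignment to mm10 (GENCODE M20) and the expectation-maximization step of Partek, which splits reads that fit more than 1 gene. A second deposited table, by the authors, holds a normalized signal of 18324 genes, in which each value is the count plus 1 times 1 upper quartile factor per library.

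Here the counts were rounded and fitted by quasi-likelihood in edgeR 4.0.16 (newer method, R 4.3.3) with upper quartile scaling. To be tested a gene had to average 1 or more normalized counts and to sum to 10 or more, limits stated by the paper, which left 11711 genes. A gene passed at a Benjamini-Hochberg adjusted p under 0.05 over these. Partek's GSA was not run. Standard errors and 95% intervals come from the fold change and its F statistic. Intervals for the ratio of replicate libraries are exact (Clopper-Pearson, scipy 1.17.1). Exon lengths are from GENCODE M21 and were found for 21853 of 22558 genes. Windows before gene starts are from RefSeq, and transcript identity was computed with Biopython 1.88.

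The members and lists were chosen with earlier results of these data known. The genes named are the 9 members, Icam1, Gata3, Il1rl1, Il5, Stat4, Cyp1b1, Foxp3, of each pathway list the 3 most abundant and up to 3 more with the smallest adjusted p, and of each marker list the 2 most abundant. The rule also names genes patterned like a member that passed, of which there was none. An item it also names is not reported here. Other genes, among them Il13, Tiparp, Aldh3a1, Trdc and Ncr1, were named after their values were seen. Alternatives were TMM factors, DESeq2 1.42.0, edgeR's older test, limma 3.58.1 on log2 of the normalized count plus 1, other low-count filters, a replicate block and leaving out each library. Nothing says that pools of 1 label came from separate experiments, so p-values measure the spread between these libraries. Floors and the intervals for the ratio of replicate libraries cover counting error only. The intervals of the fold changes rest, like the p-values, on the spread between these libraries.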

Additional observations from a re-analysis of the deposited data

How the results depend on the processing

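None of the members tested was called higher or lower under any of the 12 alternatives (0 in each, also with a 2-fold line). All 9 were tested with edgeR's own filter, no filter and at least 10 counts in every library, and 6 under the others. The smallest adjusted p of the 6 was 0.0546. Of 72 member values 8 changed sign, all of Ifng and Il17f. Il17f was at -0.00064 with edgeR's own filter, -0.15 with limma, -0.015 without a filter, and between -1.03 and 0.61 when single libraries were omitted. Over the same omissions Ifng ranged from -0.74 to 0.34, Rora from -0.049 to 0.20 and Stat3 from -0.091 to 0.042. The causes were not tested.

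Higher genes of the IL-12 and interferon list numbered 4, with 2 under edgeR's own filter, 1 without a filter, and 0 to 4 with a library left out. Higher genes of the IL-23 list numbered 7, with 4 without a filter and 5 to 7 with a library left out. The aryl hydrocarbon receptor list had 1 higher gene, with 0 under edgeR's older test, its own filter, no filter, and 0 to 1 with a library left out. It had 1 lower gene, with 2 under DESeq2, TMM factors, limma or at least 10 counts in every library, 0 without a filter and 0 to 1 with a library left out. The IL-12 and interferon list had 6 higher genes under DESeq2 and 5 with a replicate block. A fit without a filter tests more genes. With 1 library left out, the lone library is assumed to vary like the other group. The level of Il17f per length was 4.27 on its longest transcript.

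The shared replicate numbers do not mark shared animals, and deviations of same-numbered libraries correlated at -0.058 over 11711 genes. With a replicate block the aryl hydrocarbon receptor list had 0 higher genes, Il17f was at -0.019 and 0 members passed. Members other than Ahr rest on 13 to 308 counts a library, which limits what could be detected.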
